A study of Mus musculus with 30 samples.

Results

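The nuclear genes of the mitochondrial respiratory chain and of the ATP synthase were followed through fetal ovary development in the mouse. A gene was included when a probe set carried its symbol alone in the platform annotation and the symbol began with Nduf, Uqcr, Cox4 to Cox8 or Atp5, or was Sdha, Sdhb, Sdhc or Sdhd. This gave 145 probe sets of 80 genes, out of 36701 probe sets and 15964 named genes. They comprised 32 complex I subunit genes, 7 complex I assembly genes, 4 complex II genes, 7 complex III genes, 16 complex IV genes and 14 ATP synthase genes. A further 16 probe sets that the annotation gives several symbols were left out, and with them 12 genes, so that Atp5b and Uqcrfs1, for example, were not analysed here. Genes of the mitochondrial genome were also not analysed here.

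Total RNA of pooled embryonic ovaries from BL/6-129 mice was hybridised to the 3 arrays (A, B and C) of a short-oligonucleotide array set. Ovaries were taken at 11.5, 12.5, 14.5, 16.5 and 18.5 days post coitum (dpc), with 2 numbered samples at each age and 30 arrays in all. The labels add that the youngest gonads were sexed by PCR for Sry, give neither the number of animals in a pool nor any treatment or allele, and leave unstated whether the paired samples are independent pools. The p-values therefore measure only the spread between these samples. Testing was limited to probe sets with a signal intensity of 50 or more in at least 2 of the 10 samples, a level that 112 of the 145 member probe sets met, for 77 genes. Ndufc2, Cox6a2 and Cox8a had no probe set that did.

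Electrons from NADH enter the respiratory chain at complex I and those from succinate at complex II, pass through ubiquinone to complex III and through cytochrome c to complex IV, which reduces oxygen. Complexes I, III and IV pump protons across the inner mitochondrial membrane, and the ATP synthase, also called complex V, uses the returning protons to make ATP. In the fetal ovary, mitochondria multiply as germ cells proliferate and pass into meiosis, and the oocyte later hands its mitochondria to the embryo.

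The ovary label was compared with marker genes. Foxl2, a transcription factor of ovarian supporting cells, had signals of 94.5 and 89.5 at 11.5 dpc, 242.9 and 92.8 at 12.5 dpc, 374.4 and 327.7 at 14.5 dpc, 792.5 and 858.4 at 16.5 dpc, with 667.4 and 793.3 at 18.5 dpc. Of 8 testis markers 5 were tested, with 1 called upward and 1 downward late (16.5 and 18.5 dpc) versus early (11.5 and 12.5 dpc), and they summed to between 1270.2 and 1564.4 at the late ages, against between 1473.7 and 1961.5 at the early ages. Sox9, a transcription factor of supporting cells in the testis, lay between 477.0 and 892.2 in the 10 samples, while Amh, a hormone of fetal testis, did not exceed 21.7 and was not tested. In bulk tissue a change in the number of cells that express a gene and a change in the RNA per cell cannot be told apart. Germ cell markers summed to between 2727.4 and 6101.0 at 16.5 and 18.5 dpc, against between 1163.4 and 2840.9 at 11.5 and 12.5 dpc, with 9 of 13 tested markers called upward and 2 downward. The 12 ovarian supporting cell markers, 7 of them called upward and 1 downward, summed to between 14708.4 and 18745.5 at the late ages, against between 10685.6 and 13103.7 at the early ages. The 6 tested surface epithelium markers were all called upward, and 5 of 9 mesenchyme markers were called upward and 2 downward, while 3 of 7 endothelium markers were called downward. The ratio of 3′ to 5′ signal of the Gapdh control probe sets, a measure of RNA and target length, lay between 0.917 and 1.087 at the late ages, against between 0.829 and 0.845 at the early ages. The part of these differences in the results that follow was not tested.

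Proximal promoters are shown for 4 genes that recur in the results. Ndufb6 and Ndufaf8 rose with age, Sdhd and Cox7b fell, and Cox7b is the one with no match to a motif searched here. Each window runs 5′ to 3′ on the gene's strand, from 250 bases before the annotated start to 30 bases after it, in RefSeq's annotation of GRCm38.p6. Capitals mark CCGGAAG, the site of GABPA (also called NRF2) and other ETS factors, or its reverse complement, and in Ndufaf8 also AAGATGGCG, a site of YY1. The windows lie at chr4:40279392-40279671 on the minus strand for Ndufb6, chr11:120098684-120098963 on the plus strand for Ndufaf8, chr9:50603820-50604099 on the minus strand for Sdhd and chrX:106015450-106015729 on the plus strand for Cox7b.
Ndufb6: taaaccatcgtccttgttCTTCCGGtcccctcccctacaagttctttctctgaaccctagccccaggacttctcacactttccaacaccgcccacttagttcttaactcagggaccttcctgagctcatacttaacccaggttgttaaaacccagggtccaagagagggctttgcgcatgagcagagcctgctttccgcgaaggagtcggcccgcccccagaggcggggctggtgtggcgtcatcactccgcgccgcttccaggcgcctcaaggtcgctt
Ndufaf8: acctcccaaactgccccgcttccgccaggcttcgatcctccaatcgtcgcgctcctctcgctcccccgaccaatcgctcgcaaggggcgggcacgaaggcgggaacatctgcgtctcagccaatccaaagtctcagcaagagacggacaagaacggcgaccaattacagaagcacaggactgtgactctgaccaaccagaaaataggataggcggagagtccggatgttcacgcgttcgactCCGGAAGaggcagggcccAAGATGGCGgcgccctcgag
Sdhd: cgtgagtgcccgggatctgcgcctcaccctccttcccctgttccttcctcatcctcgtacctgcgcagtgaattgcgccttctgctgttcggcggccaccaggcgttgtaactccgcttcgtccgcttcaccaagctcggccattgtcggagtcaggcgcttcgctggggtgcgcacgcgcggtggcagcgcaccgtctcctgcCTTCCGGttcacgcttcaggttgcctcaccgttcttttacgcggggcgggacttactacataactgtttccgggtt
Cox7b: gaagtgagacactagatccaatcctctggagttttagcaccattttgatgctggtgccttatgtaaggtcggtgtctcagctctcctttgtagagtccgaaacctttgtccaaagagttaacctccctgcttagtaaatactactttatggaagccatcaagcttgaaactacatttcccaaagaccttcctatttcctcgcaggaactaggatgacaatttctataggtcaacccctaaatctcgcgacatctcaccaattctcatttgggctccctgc

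Of the 80 member genes, 66 had a promoter entry, with 71 windows among them. CCGGAAG, searched on both strands, occurred in 18 of the 71 windows (25.4%), against 8.45% of all 32851 promoter windows of the same length. GCGCATGCG, a site of NRF1, occurred in 8 member windows (11.3%), against 1.67% of all windows, and AAGATGGCG in 2 (2.82%), against 1.05%. No motif searched contains another. TCAAGGTCA, a site of the estrogen-related receptors, occurred in none of the 71, against 0.417% of all windows. CCGGAAG occurred in the windows of Atp5e, Ndufaf8 and Ndufb6 among the 11 genes with an entry that were called upward with age in either comparison of late with early ovaries below, and of Sdhd among the 8 called downward. A match is a description of these letters and not evidence of binding.

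Both ends of the time course were compared first. Log2 changes below are of signal + 16, from a limma fit with the 5 ages as groups, and a probe set was called at a Benjamini-Hochberg adjusted p under 0.05 over all 24825 tested probe sets. At 18.5 versus 11.5 dpc, 15 of 112 member probe sets (13.4%) were called, against 14.5% of all tested probe sets. Of these, 8 (7.14%) were upward and 7 (6.25%) downward, against 7.59% and 6.87% of all. Both 18.5 dpc samples lay above both of 11.5 dpc for 35 members (31.2%) and below for 27 (24.1%), against 28.8% and 26.9% of all. For the 2 late ages (16.5 and 18.5 dpc) versus the 2 early ages (11.5 and 12.5 dpc), 23 member probe sets (20.5%) of 21 genes were called, against 20.1% of all. Of these, 14 (12.5%) were upward and 9 (8.04%) downward, against 10.5% and 9.59% of all. The F test over the 5 ages called 14 (12.5%), against 14.4%. With the probe set of highest mean kept for each gene, the shares were 15.6% of 77 members at 18.5 versus 11.5 dpc and 22.1% late versus early, against 17.5% and 24.5% of all named genes tested. Most members are on array A, where 12.2% of 74 were called at 18.5 versus 11.5 dpc and 18.9% late versus early, against 22.3% and 29.3% of all probe sets tested on that array, and the F test called 13.5%, against 21.7%. The median member change was 0.09 at 18.5 versus 11.5 dpc (0.20 with 11.5 dpc replicate 1 left out and -0.04 with replicate 2 left out) and 0.08 late versus early, against 0.02 and 0.00 for all tested probe sets. These comparisons share the 11.5 and 18.5 dpc samples.

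**Figure D1:**
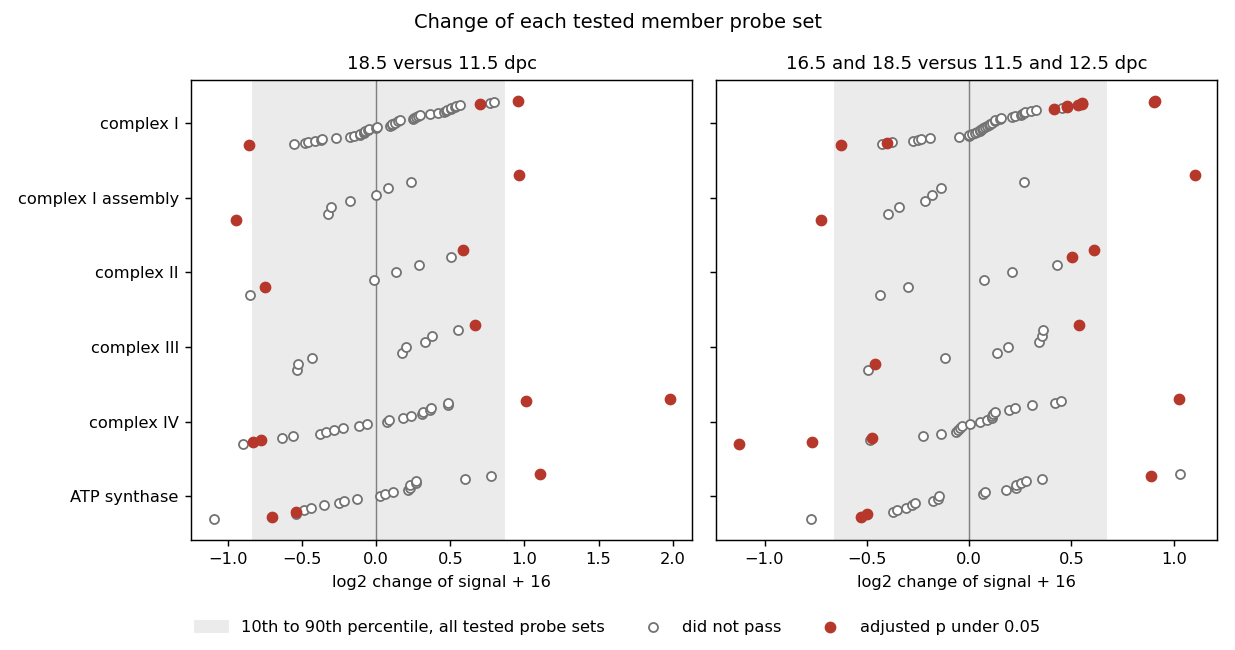
Log2 change of signal + 16 for each of the 112 tested member probe sets (points, one per probe set, stacked by complex), at 18.5 versus 11.5 dpc (left) and for the late versus the early ages (right). Filled points passed an adjusted p under 0.05, 15 on the left and 23 on the right, and the grey band spans the 10th to 90th percentile of all 24825 tested probe sets.

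For some of the fits with a single sample left out, counts are given beside the same shares over all probe sets. Those at 18.5 versus 11.5 dpc and late versus early without an 11.5 dpc sample are not listed. The median member change at 18.5 versus 11.5 dpc was 0.204 without 11.5 dpc replicate 1, against -0.021 over all. It was -0.035 without replicate 2, against 0.041, so its sign turned on the 11.5 dpc sample kept. Late versus early the medians were 0.104 and 0.051, against -0.017 and 0.01. At 18.5 versus 11.5 dpc, 3 members (2.7%) were called with either 18.5 dpc sample left out, against 6.19% of all probe sets then tested for replicate 1 and 6.92% for replicate 2. Late versus early, 12 members (10.7%) were called with 12.5 dpc replicate 1 left out, against 14.6% of all, and 14 (12.5%) with 12.5 dpc replicate 2 left out, against 14% of all. The count was 12 (10.8%) with 16.5 dpc replicate 2 left out, against 13.8% of all. It was 11 (9.91%) with 18.5 dpc replicate 1 left out, against 13.6%, and 14 (12.6%) with 18.5 dpc replicate 2 left out, against 14.6%. The F test called 24 members (21.8%) with 11.5 dpc replicate 1 left out, against 15% of all, and 33 (29.5%) with 11.5 dpc replicate 2 left out, against 17.9%. With a 12.5 dpc sample left out it called 6 and 8 (5.36% and 7.14%), against 9.63% and 10% of all. With a 14.5 dpc sample left out it called 8 and 8 (7.27% and 7.21%), against 12.8% and 12.6%, and with an 18.5 dpc sample left out 4 and 5 (3.6% and 4.5%), against 7.44% and 8%. Of the calls at 18.5 versus 11.5 dpc, 15 of 21 were upward after quantile normalization, against 49.6% of all calls, and 5 of 13 after median scaling, against 46.3%. For late versus early, 20 of 30 were upward after quantile normalization, against 50.6% of all calls, beside 14 of 23 as deposited, against 52.3%.

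Between adjacent ages, the mean of a member was most often highest at 14.5 dpc and most often lowest at 12.5 dpc. The age of the highest mean was 14.5 dpc for 42 of 112 member probe sets (37.5%), against 15.3% of all tested probe sets. The age of the lowest mean was 12.5 dpc for 45 (40.2%), against 17.8%. Only 4 members (3.57%) had their highest mean at 12.5 dpc, against 20.3% of all. In single samples the median member deviation from the 10-sample mean was 0.11 and -0.12 at 11.5 dpc, -0.12 and -0.16 at 12.5 dpc, with 0.22 and 0.11 at 14.5 dpc. Replicate 1 of 11.5 dpc was therefore level with the lower 14.5 dpc sample, and replicate 2 with the higher 12.5 dpc sample.

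**Figure D2:**
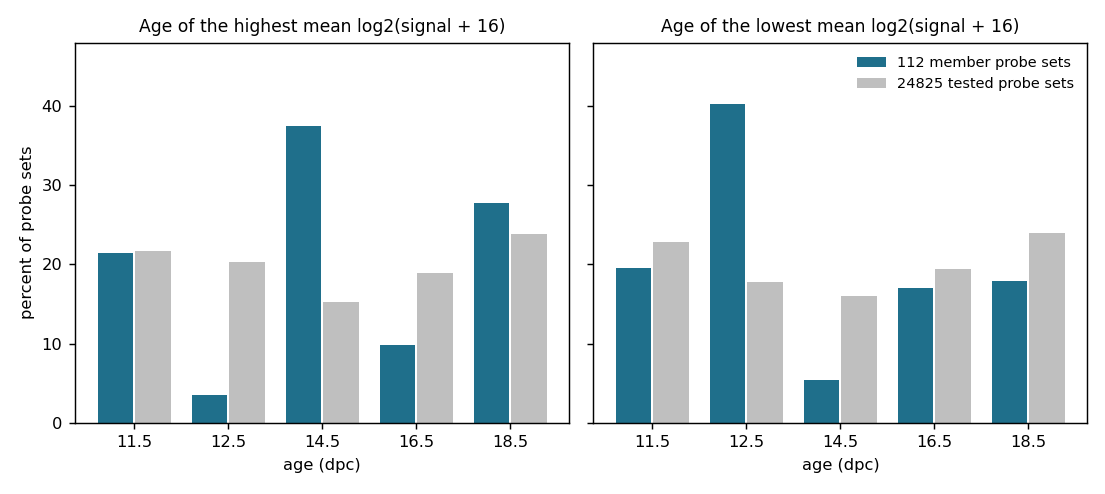
Percent of probe sets whose mean log2(signal + 16) was highest (left) or lowest (right) at each of the 5 ages, for the 112 tested member probe sets (dark bars) and all 24825 tested probe sets (grey bars). Members were highest most often at 14.5 dpc (37.5%) and lowest most often at 12.5 dpc (40.2%).

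At 14.5 versus 12.5 dpc, both samples lay above both of the earlier age for 61 of 112 member probe sets (54.5%) of 52 genes, against 22.9% of all tested probe sets. Both lay below for 10 (8.93%), against 24.2%. The median member change was 0.28, against -0.01 over all. Complex III had 7 of 9 probe sets upward and none downward, and complex II had 5 of 7 and none downward. Complex I had 25 of 44 upward and 1 downward, complex IV 12 of 23 and 2, and the ATP synthase 9 of 21 and 2. The complex I assembly genes had 3 of 8 upward and 5 downward, and whether they differ from the subunits was not tested.

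In the limma fit with Benjamini-Hochberg adjustment, only Atp5e was called at 14.5 versus 12.5 dpc (1 of 112 members, or 0.893%), against 1.66% of all tested probe sets. At an unadjusted p under 0.05, 33 members were higher (29.5%) and 4 lower (3.57%), against 7.49% and 7.42% of all. Both directions together gave 37 members (33%), against 14.9%. The call of Atp5e was lost without 12.5 dpc replicate 1, without either 14.5 dpc sample and without either 18.5 dpc sample, and also with the replicate number as a block, with no filter and after median scaling. Leaving out 11.5 dpc replicate 1 raised the count to 14, leaving out 11.5 dpc replicate 2 to 15 and leaving out both to 16, all of them upward, against 3.31%, 3.42% and 3.51% of the probe sets then tested. The setting without both was added after the data had been seen. The probe sets called without replicate 1 were all among those called without replicate 2, and belonged to Atp5e, Atp5md, Cox4i1, Cox7a2, Ndufa5, Ndufaf8, Ndufb2, Ndufb5, Ndufb6, Ndufc1, Ndufv2, Uqcr10 and Uqcrc2. Those of Atp5e, Atp5md, Cox4i1, Ndufa5, Ndufb2, Ndufb5 and Uqcrc2 carry an added letter in the suffix and can share sequence with relatives or pseudogenes.

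The 2 samples of 11.5 dpc differed from each other on these genes. Replicate 1 was the higher of the pair for 80 of 112 members (71.4%), with a median difference of 0.25 on the log2 scale, against 46.5% of all tested probe sets and a median of -0.05. Atp5md, a small membrane subunit of the ATP synthase, had 5062.7 and 2061.7 at 11.5 dpc, 1524.1 and 2014.9 at 12.5 dpc, 3455.8 and 3308.0 at 14.5 dpc, 1568.6 and 2545.9 at 16.5 dpc, with 3854.3 and 3923.5 at 18.5 dpc. Replicate 1 of 11.5 dpc was the highest of the 10 samples, and both of its 14.5 dpc samples exceed both at 12.5 dpc. Cox6c, a complex IV subunit, had 4631.9 and 2190.4 at 11.5 dpc, 1911.7 and 2250.2 at 12.5 dpc, 3367.6 and 3228.9 at 14.5 dpc, 1849.9 and 2671.9 at 16.5 dpc, with 3427.7 and 3289.4 at 18.5 dpc. The probe sets of Atp5md and Cox6c carry the suffix _f_at, which marks a family of similar sequences, so related copies may contribute. Array A of 11.5 dpc replicate 1 also had the lowest median signal of the 10 arrays of its type, 47.0, although all were scaled to the same mean. At 16.5 dpc the imbalance ran the other way, with replicate 1 higher for 32 of 112 members (28.6%), against 51% of all.

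**Figure D3:**
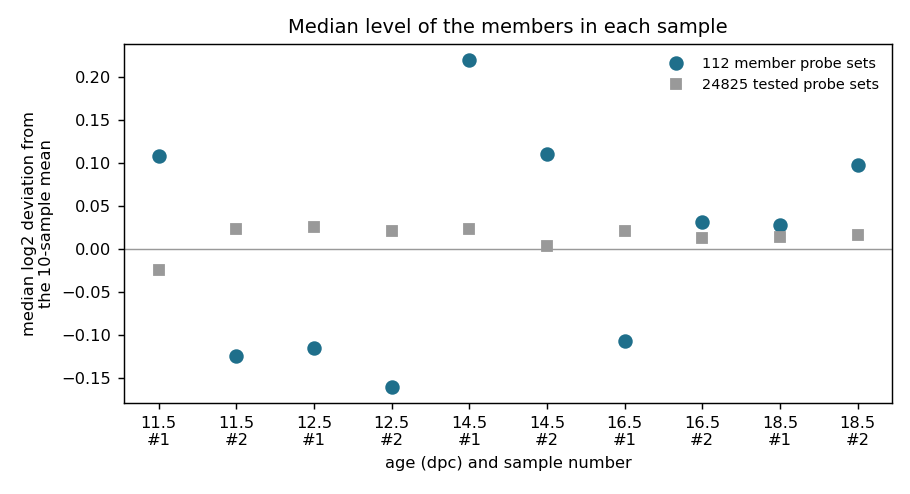
Median over probe sets of the log2 deviation of each sample from the 10-sample mean, for the 112 tested member probe sets (circles) and all 24825 tested probe sets (squares), by age and sample number. Both 12.5 dpc samples lie below 0 and both 14.5 dpc samples above it, while the 2 samples of 11.5 dpc lie on either side, at 0.11 and -0.12.

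At 16.5 versus 14.5 dpc, both samples lay below both of the earlier age for 47 members (42%), against 23.2% of all, and above for 11 (9.82%), against 23.8%. The median member change was -0.19, against 0.00. Of the ATP synthase 13 of 21 probe sets lay below, of complex IV 11 of 23, of complex III 5 of 9 and of complex I 14 of 44. These values share the 14.5 dpc samples with the comparison before. Only Uqcrb, a complex III subunit near the ubiquinone site, was called (1 of 112, against 0.689% of all tested probe sets), with 20 members at an unadjusted p under 0.05, against 15.6% of all. Its call was lost without either sample of 12.5, 14.5, 16.5 or 18.5 dpc, with the replicate block, with no filter, after median scaling and without an intensity trend in eBayes. The count was 4 without either or both of the 11.5 dpc samples, with Cox7a1, Cox7b and Ndufb2 added, against 2.3%, 2.3% and 2.38% of all with replicate 1, replicate 2 and both left out. At 12.5 versus 11.5 dpc no member was called in the limma fit, against 0.226% of all, with 16 members (14.3%) at an unadjusted p under 0.05, against 12.4%. Without 11.5 dpc replicate 2 the count was 13 (11.6%), of which 12 were downward, against 2.28% of all called in either direction and 0.998% downward. Both 12.5 dpc samples lay above both of 11.5 dpc for 14 members (12.5%) and below for 30 (26.8%), against 22.4% and 19.9% of all. At 18.5 versus 16.5 dpc none was called, against 0.624% of all, with 8 at an unadjusted p under 0.05, against 13.1%. Both 18.5 dpc samples lay above both of 16.5 dpc for 31 members (27.7%) and below for 17 (15.2%), against 23% and 23.8% of all. The median changes in these last 2 steps were -0.14 and 0.09, against 0.01 and -0.01 over all tested probe sets. The median of 12.5 versus 11.5 dpc was 0.00 with 11.5 dpc replicate 1 left out and -0.255 with replicate 2 left out. With 16.5 dpc replicate 1 left out, the median was -0.115 at 16.5 versus 14.5 dpc and 0.02 at 18.5 versus 16.5 dpc.

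Germ cell marker sums were 4543.0 and 3445.1 at 14.5 dpc, against 2840.9 and 1890.1 at 12.5 dpc, and were 2870.8 and 2727.4 at 16.5 dpc. Both 14.5 dpc sums exceeded those of 12.5 and 16.5 dpc, but the 18.5 dpc sums of 5873.8 and 6101.0 were higher still. Muscle marker sums were 1212.6 and 1339.6 at 14.5 dpc, the highest of the 10 samples, against 996.8 and 898.0 at 12.5 dpc, and were 1074.9 and 932.4 at 16.5 dpc. Actc1, the cardiac actin, had 289.7 and 346.1 at 14.5 dpc, against 179.8 and 109.4 at 12.5 dpc. Other muscle markers went the other way in this step. Myl1 had 143.6 and 147.0 at 14.5 dpc, against 275.9 and 197.0 at 12.5 dpc, and Actg2 had 205.4 and 164.2, against 222.7 and 240.9. Surface epithelium marker sums were 2731.7 and 2604.5 at 14.5 dpc, against 1579.9 and 1467.8 at 12.5 dpc, and were 2753.4 and 4048.6 at 16.5 dpc. The part of these cell types in the member pattern was not tested.

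**Figure D4:**
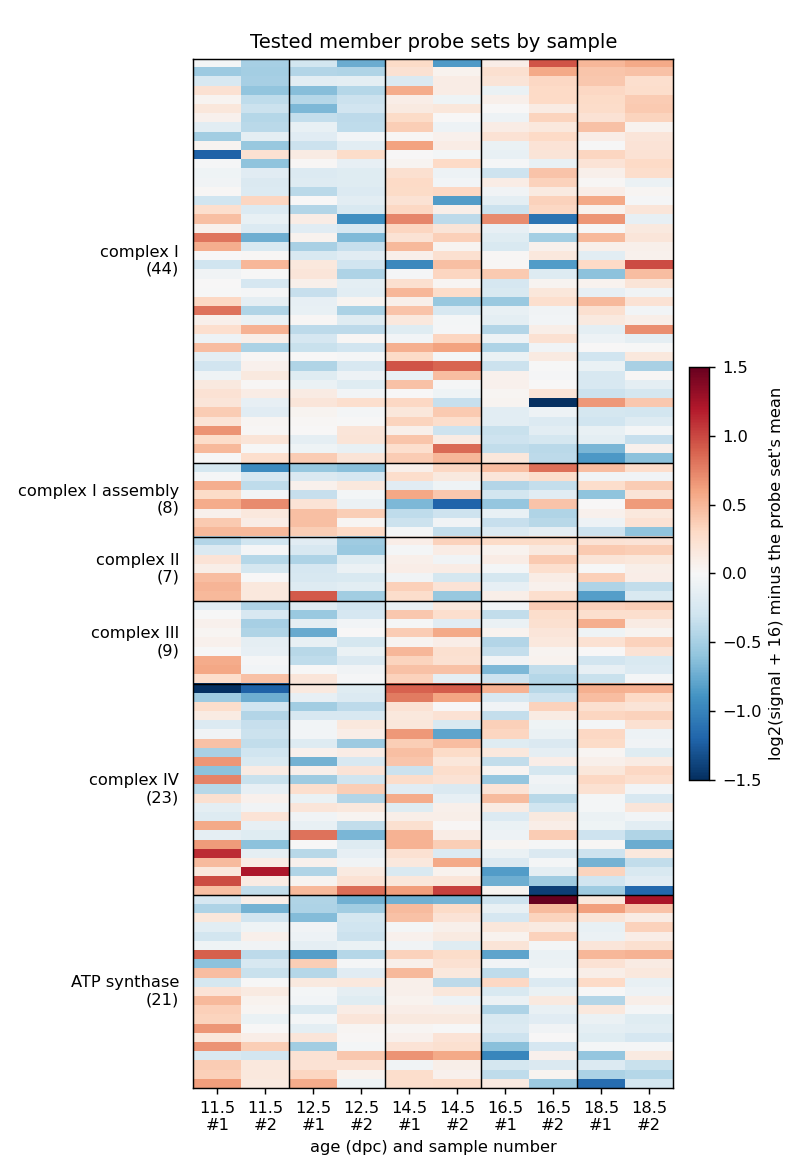
Each row is 1 of the 112 tested member probe sets, grouped by complex and sorted within it by late versus early change, and each column is 1 of the 10 samples. Colour gives log2(signal + 16) minus the probe set's mean, red above and blue below it. The 12.5 dpc columns are mostly blue and the 14.5 dpc columns mostly red outside the complex I assembly genes.

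Complex I, the NADH dehydrogenase, had 8 of 44 tested probe sets (18.2%, 7 genes) called upward and 2 (4.55%) downward late versus early, against 10.5% and 9.59% of all. At 18.5 versus 11.5 dpc it had 2 (4.55%) upward and 1 (2.27%) downward, against 7.59% and 6.87%. Ndufb6, an accessory subunit of the membrane arm, had 632.0 and 649.0 at 11.5 dpc, 680.8 and 674.4 at 12.5 dpc, 1088.8 and 967.4 at 14.5 dpc, 1099.4 and 1387.5 at 16.5 dpc, with 1246.0 and 1268.1 at 18.5 dpc. Every sample from 14.5 dpc on lay above every sample of the 2 early ages. The late versus early change was 0.90 ± 0.11 on the log2 scale (SE; limma adjusted p = 0.00012, 1.87-fold), and at 18.5 versus 11.5 dpc it was 0.95 ± 0.15 (adjusted p = 0.0014). Its other tested probe set stayed between 10.5 and 55.8 and was not called.

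Ndufs7, the core subunit that holds the last iron-sulfur cluster before ubiquinone, had 1466.5 and 1216.2 at 11.5 dpc, 1546.5 and 1558.6 at 12.5 dpc, 1485.5 and 1867.7 at 14.5 dpc, 1978.9 and 2148.3 at 16.5 dpc, with 2304.6 and 2061.6 at 18.5 dpc. All 4 late samples exceeded all 6 of the younger ages. It rose by 0.70 ± 0.20 at 18.5 versus 11.5 dpc (limma adjusted p = 0.032) and by 0.55 ± 0.14 late versus early (adjusted p = 0.014). Ndufv1, the core subunit that binds NADH and flavin, had 1146.2 and 1215.0 at 16.5 dpc and 1058.0 and 1125.3 at 18.5 dpc, against 683.0 and 891.0 at 11.5 dpc and 877.7 and 956.7 at 12.5 dpc. Late and early samples did not overlap, and the late versus early change was 0.42 ± 0.11 (limma adjusted p = 0.017). The 18.5 versus 11.5 dpc call of Ndufs7 was lost with 11.5 dpc replicate 2 or any sample of 12.5 or 18.5 dpc left out, and its late versus early call with 16.5 dpc replicate 2 or 18.5 dpc replicate 1 left out. The call of Ndufv1 was lost with 12.5 dpc replicate 1, 16.5 dpc replicate 2 or either 18.5 dpc sample left out.

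Ndufa8, an accessory subunit facing the intermembrane space, rose by 0.53 ± 0.12 late versus early (limma adjusted p = 0.0095), also with no overlap. Ndufv2, the iron-sulfur partner of Ndufv1, rose by 0.55 ± 0.17 (adjusted p = 0.041), and Ndufb11, a membrane arm subunit, by 0.48 ± 0.14 (adjusted p = 0.027), but the late and early samples of both overlapped. A second probe set of Ndufv2 gave 0.45 (adjusted p = 0.051). Ndufc1, a small membrane arm subunit, was called through both of its probe sets, by 0.91 ± 0.28 (adjusted p = 0.037) and 0.48 ± 0.13 (adjusted p = 0.021). The calls of Ndufv2, Ndufb11 and the first Ndufc1 probe set were lost with 11.5 dpc replicate 2, 16.5 dpc replicate 2 or any sample of 12.5 or 18.5 dpc left out, and that of the second Ndufc1 probe set in the same fits as Ndufv1. With 1 sample left out, the change of Ndufv2 ranged from 0.345 to 0.755.

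Ndufs1 and Ndufv3, both of the NADH-oxidising arm, were called downward. Ndufv3, an accessory subunit, had 162.9 and 168.8 at 16.5 dpc and 185.4 and 158.4 at 18.5 dpc, against 253.3 and 237.5 at 11.5 dpc and 187.1 and 238.6 at 12.5 dpc, a change of -0.40 ± 0.13 (limma adjusted p = 0.041). Ndufs1, the core subunit with several iron-sulfur clusters, gave 3 different answers. The probe set of lowest signal at 18.5 dpc had 227.3 and 272.8 at 18.5 dpc, against 424.0 and 510.7 at 11.5 dpc, and fell by 0.86 ± 0.25 (limma adjusted p = 0.038). The other 2 gave 0.00 (adjusted p = 1.0) and -0.27 (adjusted p = 0.31) in the same comparison, so the fall of Ndufs1 rests on 1 of 3 probe sets. That call was lost with any sample of 11.5, 12.5 or 18.5 dpc left out, and that of Ndufv3 with 11.5 dpc replicate 1, 12.5 dpc replicate 2 or any sample of 16.5 or 18.5 dpc left out. The core subunits Ndufs3 and Ndufs8 did not pass. Ndufs3, in the brighter of its probe sets, had 456.3 and 476.9 at 18.5 dpc, against 673.8 and 624.3 at 11.5 dpc (-0.46, limma adjusted p = 0.051), and Ndufs8 had 2663.6 and 3177.7, against 3012.5 and 3473.9 (-0.15, adjusted p = 0.7).

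Among the complex I assembly factors, which help build the complex and are not part of it, 1 of 8 probe sets (12.5%) was called upward and 1 downward in both comparisons. The upward and downward shares of all tested probe sets were 10.5% and 9.59% late versus early, and 7.59% and 6.87% at 18.5 versus 11.5 dpc. Ndufaf8, which in human cells acts with the assembly factor NDUFAF5, had 769.8 and 473.5 at 11.5 dpc, 618.4 and 591.8 at 12.5 dpc, 978.9 and 1150.0 at 14.5 dpc, 1281.4 and 1645.8 at 16.5 dpc, with 1276.0 and 1113.6 at 18.5 dpc. All samples from 14.5 dpc on exceeded all earlier samples. It rose by 1.10 ± 0.16 late versus early (limma adjusted p = 0.00046, 2.15-fold).

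Ndufaf3, an early assembly factor that works with Ndufaf4, had 280.1 and 281.7 at 11.5 dpc, 257.3 and 244.7 at 12.5 dpc, 191.0 and 149.6 at 14.5 dpc, 168.0 and 176.1 at 16.5 dpc, with 154.8 and 123.5 at 18.5 dpc. Here every sample from 14.5 dpc on lay below every earlier sample, the opposite of Ndufaf8. It fell by 0.94 ± 0.21 at 18.5 versus 11.5 dpc (limma adjusted p = 0.0099, 1.92-fold lower) and by 0.72 ± 0.15 late versus early (adjusted p = 0.0044), the first of which was lost with 18.5 dpc replicate 2 left out. Ndufaf4 did not pass in either of its tested probe sets, with late versus early changes of -0.14 and -0.39 (limma adjusted p = 0.69 and 0.13).

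In complex II, succinate dehydrogenase, the 2 membrane anchors went in opposite directions at 18.5 versus 11.5 dpc. Sdhc was called upward there by 1 probe set, a call lost in 5 of the 19 other settings run, and Sdhd downward. With 1 sample left out, this change of Sdhc ranged from 0.515 to 0.649. Sdhc had 476.2 and 524.0 at 11.5 dpc, 574.4 and 444.5 at 12.5 dpc, 697.6 and 829.4 at 14.5 dpc, 793.5 and 798.1 at 16.5 dpc, with 757.7 and 754.1 at 18.5 dpc. The samples from 14.5 dpc on all exceeded the earlier ones, and the late versus early change was 0.61 ± 0.11 (limma adjusted p = 0.0027), with 0.50 ± 0.17 (adjusted p = 0.048) for its second probe set, a call lost in 14 of the 18 other settings run.

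Sdhd had 905.4 and 702.4 at 11.5 dpc, 550.9 and 561.6 at 12.5 dpc, 809.0 and 731.3 at 14.5 dpc, 578.7 and 659.9 at 16.5 dpc, with 453.0 and 484.0 at 18.5 dpc. The 2 samples of 18.5 dpc were the lowest of the 10, while 12.5 dpc lay below 14.5 dpc. The fall at 18.5 versus 11.5 dpc was -0.75 ± 0.16 (limma adjusted p = 0.0081, 1.68-fold lower), and the late versus early change of -0.30 did not pass (adjusted p = 0.082). The call at 18.5 versus 11.5 dpc was lost with either 18.5 dpc sample left out. The flavin subunit Sdha did not pass at 18.5 versus 11.5 dpc, with 101.7 and 82.4 at 18.5 dpc and 111.2 and 76.9 at 11.5 dpc. Nor did the iron-sulfur subunit Sdhb, by either of its probe sets (0.29 and 0.13, limma adjusted p = 0.43 and 0.65).

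In complex III, the cytochrome bc1 complex, 1 of 9 probe sets (11.1%) was called upward and 1 downward late versus early, against 10.5% and 9.59% of all. Uqcrc1, a core protein on the matrix side, had 683.1 and 558.5 at 11.5 dpc, 679.2 and 621.8 at 12.5 dpc, 709.3 and 860.8 at 14.5 dpc, 745.4 and 1005.3 at 16.5 dpc, with 979.1 and 1002.2 at 18.5 dpc. All samples from 14.5 dpc on exceeded the earlier ones. It rose by 0.54 ± 0.13 late versus early (limma adjusted p = 0.0099) and by 0.67 ± 0.18 at 18.5 versus 11.5 dpc (adjusted p = 0.025), which was lost with 11.5 dpc replicate 2 or either 18.5 dpc sample left out. Its partner Uqcrc2 did not pass, at 0.34 late versus early (adjusted p = 0.16), although both of its 14.5 dpc samples (1201.7 and 1375.0) exceeded both at 12.5 dpc (540.8 and 927.1).

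Uqcrb had 1506.5 and 979.9 at 11.5 dpc, 999.5 and 972.1 at 12.5 dpc, 1363.9 and 1371.8 at 14.5 dpc, 625.1 and 774.9 at 16.5 dpc, with 921.9 and 873.2 at 18.5 dpc. The 4 late samples were the lowest of the 10. It fell by 0.96 ± 0.19 at 16.5 versus 14.5 dpc (limma adjusted p = 0.043, 1.94-fold lower) and by 0.46 ± 0.13 late versus early (adjusted p = 0.029). The late versus early call was lost with 11.5 dpc replicate 1, 16.5 dpc replicate 1 or any sample of 12.5 or 18.5 dpc left out. The probe set carries the suffix _f_at, which marks a family of similar sequences, so related copies may contribute.

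**Figure D5:**
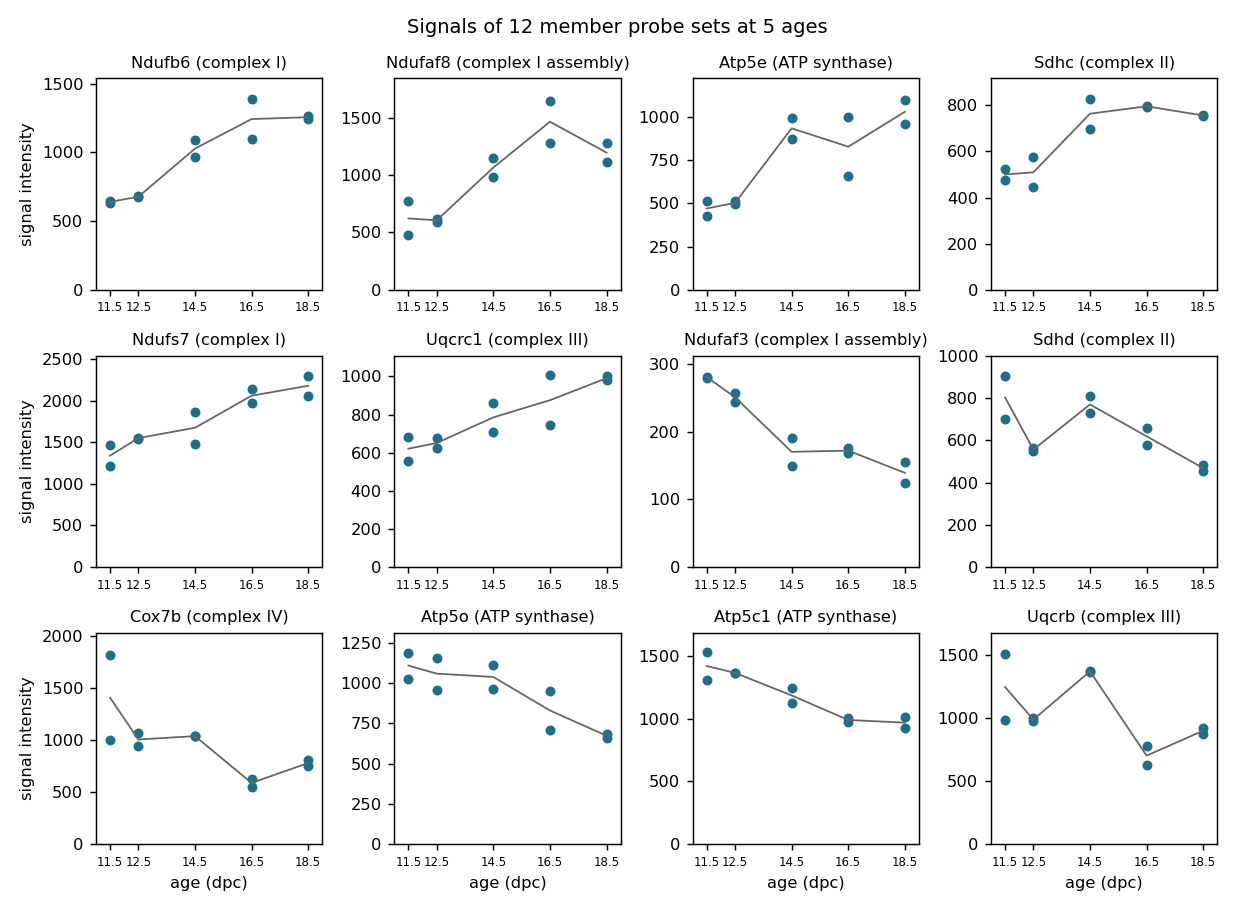
Signal intensity of 12 member probe sets against age in dpc, with each sample as a point and the line through the age means; each panel has its own axis from 0. Ndufb6, Ndufaf8, Atp5e, Sdhc, Ndufs7 and Uqcrc1 were higher at the late ages, Ndufaf3, Cox7b, Atp5o, Atp5c1 and Uqcrb were lower there, and Sdhd was lowest at 18.5 dpc.

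Complex IV, cytochrome c oxidase, had 1 of 23 probe sets (4.35%) called upward and 3 (13%) downward late versus early, against 10.5% and 9.59% of all. At 18.5 versus 11.5 dpc it had 2 (8.7%) in each direction, against 7.59% and 6.87%. Cox7b, a small accessory subunit, had 1814.5 and 993.7 at 11.5 dpc, 942.6 and 1062.5 at 12.5 dpc, 1031.6 and 1038.9 at 14.5 dpc, 543.7 and 627.5 at 16.5 dpc, with 746.0 and 808.5 at 18.5 dpc. The 4 late samples were the lowest, and the high value of 11.5 dpc replicate 1 stood alone. It fell by 0.77 ± 0.16 late versus early (limma adjusted p = 0.0048, 1.71-fold lower). Cox7b was also called downward at 18.5 versus 11.5 dpc, a call lost in 7 of the 19 other settings run. With 1 sample left out, its change in that comparison ranged from -1.208 to -0.349.

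Cox5a, a matrix-side subunit, had 4773.2 and 3696.2 at 11.5 dpc, 3570.5 and 3290.3 at 12.5 dpc, 3827.9 and 5093.7 at 14.5 dpc, 2945.5 and 3349.8 at 16.5 dpc, with 2094.8 and 2654.7 at 18.5 dpc. The 18.5 dpc samples were the lowest. It fell by 0.83 ± 0.22 at 18.5 versus 11.5 dpc (limma adjusted p = 0.026), a call lost with 11.5 dpc replicate 1 or either 18.5 dpc sample left out. Cox5a was also called downward late versus early, a call lost in 13 of the 19 other settings run. Cox5b, which binds zinc, had 1037.4 and 1070.5 at 18.5 dpc, against 958.7 and 1270.4 at 11.5 dpc, and did not pass (-0.07, adjusted p = 0.84). The ubiquitous Cox4i1 did not pass in any of 3 probe sets late versus early, with changes of 0.30, 0.12 and 0.23 and limma adjusted p of 0.19, 0.67 and 0.44.

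Tissue isoforms of complex IV gave low signals for the most part. Cox7a1, the isoform of striated muscle and brown fat, had 26.9 and 21.5 at 11.5 dpc, 41.1 and 37.8 at 12.5 dpc, 90.8 and 77.6 at 14.5 dpc, 36.6 and 34.0 at 16.5 dpc, with 69.2 and 60.6 at 18.5 dpc. The 14.5 dpc samples were the highest and the 11.5 dpc samples the lowest. Signals reached the testing level of 50 at 14.5 and 18.5 dpc alone. Cox7a1 was called upward at 18.5 versus 11.5 dpc (limma adjusted p = 0.012), a call lost with either 18.5 dpc sample left out, but as the 11.5 dpc values lie below that level the size of the change depends on the added 16 and is not given. Late versus early it did not pass (adjusted p = 0.072). Of 12 muscle markers 7 were tested, 3 called upward and 1 downward late versus early, with sums between 932.4 and 1074.9 at the late ages, against between 870.4 and 996.8 at the early ages, and their 14.5 dpc sums, like the signals of Cox7a1, were the highest of the 10 samples. None of the 3 brown fat markers (Ucp1, Cidea and Elovl3) reached the testing level, and the part of muscle or brown fat in the Cox7a1 signals was not tested.

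Cox8c, known in human as the testis isoform of subunit VIII, was called upward by 1 of its 3 tested probe sets, one of the family type. That probe set had 8.5 and 17.9 at 11.5 dpc, 71.2 and 53.3 at 12.5 dpc, 129.3 and 131.3 at 14.5 dpc, 96.7 and 43.0 at 16.5 dpc, with 97.9 and 97.5 at 18.5 dpc. Both 11.5 dpc values lay below the testing level, so the size of its change, which passed at 18.5 versus 11.5 dpc (limma adjusted p = 0.013), is not given either. The call was lost with 11.5 dpc replicate 1 or either 18.5 dpc sample left out, and the other 2 probe sets gave 0.48 and -0.29 (adjusted p = 0.23 and 0.71). The family probe set of Cox8c was also the 1 of complex IV called upward late versus early, a call lost in 12 of the 18 other settings run. Cox7a2, the widely expressed isoform, fell by 1.12 ± 0.33 late versus early (adjusted p = 0.029) in a probe set designed under relaxed rules, whose late and early samples overlapped. That call was lost with 11.5 dpc replicate 1, 16.5 dpc replicate 2, 18.5 dpc replicate 2 or either 12.5 dpc sample left out. Its other probe set gave 0.11 (adjusted p = 0.72) at signals of 1151.1 to 2989.5, so the 2 disagree on Cox7a2.

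No late versus early change passed for the other isoforms. Cox7a2l, which takes part in joining complexes III and IV, gave 0.42 (limma adjusted p = 0.052). Cox6a1, the common isoform of subunit VIa, gave -0.23 and -0.05 (adjusted p = 0.57 and 0.84). Cox6b1 gave -0.14 and -0.04 (adjusted p = 0.82 and 0.89), and its testis isoform Cox6b2 gave -0.48, -0.07 and 0.12 (adjusted p = 0.34, 0.9 and 0.56). Cox7b2 gave 0.19 (adjusted p = 0.72) and Cox8b, the muscle isoform of subunit VIII, 0.05 (adjusted p = 0.83).

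The ATP synthase had 1 of 21 probe sets (4.76%) called upward and 2 (9.52%) downward in both comparisons. Over all tested probe sets the shares were 10.5% and 9.59% late versus early, and 7.59% and 6.87% at 18.5 versus 11.5 dpc. Atp5e, the epsilon subunit of the central stalk, had 510.9 and 428.8 at 11.5 dpc, 511.2 and 492.9 at 12.5 dpc, 992.3 and 873.3 at 14.5 dpc, 656.9 and 996.7 at 16.5 dpc, with 1097.2 and 959.6 at 18.5 dpc. Every sample from 14.5 dpc on exceeded every earlier one. It rose by 0.87 ± 0.19 at 14.5 versus 12.5 dpc (limma adjusted p = 0.044), by 1.11 ± 0.19 at 18.5 versus 11.5 dpc (adjusted p = 0.0025) and by 0.89 ± 0.14 late versus early (adjusted p = 0.00072).

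Atp5c1, the gamma subunit, which forms the rotating shaft of the same stalk, went the other way. One of its probe sets had 1530.4 and 1308.1 at 11.5 dpc, 1363.8 and 1365.6 at 12.5 dpc, 1125.0 and 1244.0 at 14.5 dpc, 972.1 and 1005.9 at 16.5 dpc, with 1011.5 and 923.6 at 18.5 dpc. Its 4 late samples lay below all others, a fall of 0.50 ± 0.10 late versus early (limma adjusted p = 0.0041). A second probe set of Atp5c1 gave -0.15 (adjusted p = 0.31). Atp5o, a peripheral stalk subunit that ties the head to the membrane part, had 1190.2 and 1027.9 at 11.5 dpc, 1157.9 and 960.2 at 12.5 dpc, 1111.7 and 965.2 at 14.5 dpc, 706.4 and 953.5 at 16.5 dpc, with 661.7 and 683.9 at 18.5 dpc. Its 4 late samples were the lowest of the 10. The fall of Atp5o was 0.70 ± 0.18 at 18.5 versus 11.5 dpc (adjusted p = 0.018) and 0.53 ± 0.12 late versus early (adjusted p = 0.0098), the first of which was lost with 11.5 dpc replicate 1 or either 18.5 dpc sample left out.

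Atp5a1, the alpha subunit of the head, had 2056.0 and 2037.4 at 18.5 dpc, against 3605.7 and 2286.6 at 11.5 dpc, and did not pass (-0.49, limma adjusted p = 0.11). Atp5k, a membrane subunit at the dimer interface, was called by the F test over the 5 ages (adjusted p = 0.039), with 75.6 and 113.5 at 12.5 dpc and 69.1 and 94.8 at 16.5 dpc as its low points, but by no single comparison. The c-ring genes Atp5g1 and Atp5g2 did not pass late versus early, with 0.07 for Atp5g1 (adjusted p = 0.84) and -0.26 and -0.77 for the probe sets of Atp5g2 (adjusted p = 0.14 and 0.051).

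Genes around the chain were counted from lists chosen with earlier results of these data known, with 1 probe set per gene (the one of highest mean). They are read beside 17.5% of named genes called at 18.5 versus 11.5 dpc and 24.5% late versus early. Regulators of mitochondrial biogenesis had 9 of 22 genes called late versus early (40.9%), all downward, and 4 (18.2%) at 18.5 versus 11.5 dpc. Gabpb1, a partner of the ETS factor GABPA, had 497.9 and 512.1 at 18.5 dpc, against 1374.9 and 1282.2 at 11.5 dpc (-1.37 ± 0.22, limma adjusted p = 0.0017). Mterf3, a mitochondrial transcription and ribosome assembly factor, fell by 1.02 ± 0.22 (adjusted p = 0.0079), Tfb2m, which starts mitochondrial transcription, by 0.79 ± 0.24 (adjusted p = 0.043) and Yy1, a zinc finger factor, by 0.75 ± 0.22 (adjusted p = 0.039). Gabpa, Nrf1, Esrra and Esrrb are named because sites of their factors were searched in the promoters, and not by the rule for named genes. Gabpa and Nrf1 fell late versus early by 0.43 and 0.48 (adjusted p = 0.026 and 0.022), but did not pass at 18.5 versus 11.5 dpc (-0.52 and -0.55, adjusted p = 0.062 and 0.069). Esrra, of the estrogen-related receptors, passed in neither comparison, with 0.53 at 18.5 versus 11.5 dpc (adjusted p = 0.14) and 0.13 late versus early (adjusted p = 0.62). Esrrb, another of these receptors, was called downward late versus early (limma adjusted p = 0.0028). It did not pass at 18.5 versus 11.5 dpc (adjusted p = 0.15). Esrrb had 63.5 and 58.9 at 11.5 dpc, with 239.3 and 181.6 at 12.5 dpc. From 14.5 dpc on it lay between 13.8 and 32.0, below the testing level, so the size of its change is not given.

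Carriers of ATP and phosphate, porins and uncoupling proteins had 3 of 7 genes (42.9%) called, all downward, in both comparisons. Slc25a4, an ADP/ATP carrier, had 845.1 and 1171.0 at 18.5 dpc, against 6332.2 and 2935.3 at 11.5 dpc (-2.10 ± 0.33, limma adjusted p = 0.0011), by a probe set of the family type. The ADP/ATP carrier Slc25a5, also by a probe set of the family type, fell by 1.06 ± 0.27 (adjusted p = 0.02) and the phosphate carrier Slc25a3 by 1.33 ± 0.39 (adjusted p = 0.036). Slc25a3 had 63.6 and 77.2 at 18.5 dpc, against 333.1 and 117.9 at 11.5 dpc. Its 12.5 dpc signals, 113.7 and 107.0, lay near the lower of the 11.5 dpc samples. Electron carriers and their synthesis had 2 of 17 genes called upward and 2 downward at 18.5 versus 11.5 dpc (23.5% in all). Cycs, somatic cytochrome c, had 54.8 and 55.4 at 18.5 dpc, against 365.5 and 135.5 at 11.5 dpc (-1.76 ± 0.33, adjusted p = 0.0036), and Etfb, a subunit of the electron transfer flavoprotein, fell by 0.81 ± 0.16 (adjusted p = 0.0054). The other subunit, Etfa, rose by 0.99 ± 0.17 (adjusted p = 0.0025), and Coq3, an enzyme of ubiquinone synthesis, by 1.05 ± 0.21 (adjusted p = 0.0055).

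Of 35 assembly factors named outside the rule, 4 were called upward and 1 downward at 18.5 versus 11.5 dpc (14.3% in all). Cox11, which delivers copper to complex IV, had 375.4 and 387.5 at 18.5 dpc, against 103.0 and 141.6 at 11.5 dpc (1.54 ± 0.31, limma adjusted p = 0.0055). Tmem126b of complex I assembly rose by 1.00 ± 0.24 (adjusted p = 0.016) and Coa6 of complex IV assembly by 0.87 ± 0.23 (adjusted p = 0.025). Acad9, an acyl-CoA dehydrogenase that also serves complex I assembly, fell by 1.43 ± 0.28 (adjusted p = 0.0046). The probe sets of Cox11, Acad9 and, above, Gabpb1 carry an added letter in the suffix and can share sequence with relatives or pseudogenes.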

How the data were processed

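Signals are intensities from 3 array types, which the authors scaled, per the labels, to an array mean of 125; no further software is given in the sources used here. They were used as deposited. For each array type, log2(signal + 16) of all 10 samples was fitted in limma 3.58.1 (R 4.3.3) with the 5 ages as groups, without a block, and with an intensity trend in eBayes. Benjamini-Hochberg adjustment ran over the tested probe sets of all 3 types, and probe sets reaching 50 on at least 2 of 10 arrays were tested. The number of arrays limits the precision. Levels are not compared between probe sets, and probe sets with an added letter in the suffix can share sequence with relatives or pseudogenes.

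Members and lists were chosen with earlier results of these data known. Genes were named when called with no overlap between groups, up to the 6 largest in each direction per comparison, when among the 2 lowest F test p-values of a complex, as core subunits or tissue isoforms, or when probe sets of opposite sign included a called one; further genes called are named beside them. Of each other list, up to 4 called genes were named. Probe sets were named from the platform annotation, and all 145 member probe sets matched the RefSeq table by Entrez ID. The script was tested on simulated data. Same-numbered samples did not deviate together across ages, with correlations between -0.046 and 0.103 over all probe sets and between -0.161 and 0.219 on array A, so numbers were not used to pair samples. Other pseudocounts, filters, scalings, variance priors, adjustments, the replicate block and leaving out each sample were tried. The promoter table ends 50 bases after the start, of which the first 30 were used, and 2 of the motifs were shortened to 9 letters after a first search.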

Additional observations from a re-analysis of the deposited data

How the results depend on the processing

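None of the member changes called at 18.5 versus 11.5 dpc or late versus early was reversed in any setting run. Late versus early, 10 called probe sets passed in every setting in which they were tested, those of Ndufb6, Ndufa8, Ndufaf8, Ndufaf3, Sdhc (the brighter probe set), Uqcrc1, Cox7b, Atp5c1, Atp5e and Atp5o, and at 18.5 versus 11.5 dpc Ndufb6 and Atp5e did. The median member change at 14.5 versus 12.5 dpc lay between 0.20 and 0.31 over 16 settings, and that at 18.5 versus 11.5 dpc between -0.04 and 0.20. Without an intensity trend in eBayes, 7 members (6.25%) were called at 18.5 versus 11.5 dpc, against 11.8% of all tested probe sets. Late versus early the count was 15 (13.4%), against 17.6%, and by the F test it was 5 (4.46%), against 9.66%. At 16.5 versus 14.5 dpc it was 0, against 0.306%. After quantile normalization the F test called 23 (20.5%), against 15% of all. That normalization gave 21 calls (18.8%) at 18.5 versus 11.5 dpc, against 14.3%, and 30 (26.8%) late versus early, against 20.3%. Adjustment within each array type gave 4 calls (3.57%) at 14.5 versus 12.5 dpc, against 2.17% of all, and 2 (1.79%) at 16.5 versus 14.5 dpc, against 0.926%. Both of these counts were 0 with no filter, after median scaling and with the replicate block, and also with the plain probe sets alone, which leave out those of Atp5e and Uqcrb. With the replicate block, 14 members (12.5%) were called at 18.5 versus 11.5 dpc, against 13.8% of all. Late versus early the count was 20 (17.9%), against 19.4%, and by the F test it was 11 (9.82%), against 13.3%. Without both 11.5 dpc samples, a setting added after the data were seen, the count was 16 (14.5%) at 14.5 versus 12.5 dpc, against 3.51% of all. It was 4 (3.64%) at 16.5 versus 14.5 dpc, against 2.38%, and 1 (0.909%) at 18.5 versus 16.5 dpc, against 1.07%. Leaving out 1 sample at a time gave 0 to 13 calls at 12.5 versus 11.5 dpc, 0 to 15 at 14.5 versus 12.5 dpc, 0 to 4 at 16.5 versus 14.5 dpc, 0 at 18.5 versus 16.5 dpc, 3 to 19 at 18.5 versus 11.5 dpc, 11 to 25 late versus early and 4 to 33 by the F test. These ranges count members alone, and the share of all probe sets called also changed with the sample left out. The ranges by themselves therefore do not show whether members were called more often than other probe sets. The cause of the differences between settings was not tested. With 2 samples per age, the lone sample of a thinned age is assumed to vary like the other ages.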

Other observations

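Other parts of the mitochondrion were counted in the same way. At 18.5 versus 11.5 dpc, 17.5% of all named genes tested were called. The share was 46.7% for fusion, fission and inner membrane structure, 11.1% for the citric acid cycle and pyruvate dehydrogenase, and 10% for the mitochondrial ribosome. It was 9.52% for import and 22.2% for antioxidant genes. Genes of fusion, fission and inner membrane structure had 4 of 15 genes called upward and 3 downward at 18.5 versus 11.5 dpc. Mfn2, a fusion protein of the outer membrane, had 796.1 and 750.8 at 18.5 dpc, against 346.2 and 409.4 at 11.5 dpc (1.01 ± 0.26, limma adjusted p = 0.021). Chchd6, of the cristae junctions, was called upward, with 122.1 and 113.4 at 18.5 dpc, against 54.4 and 17.3 at 11.5 dpc (adjusted p = 0.016), while Fis1, an outer membrane fission factor, fell by 1.10 ± 0.21 (adjusted p = 0.0048) and the inner membrane scaffold Stoml2 by 0.87 ± 0.22 (adjusted p = 0.02). Of 18 citric acid cycle and pyruvate dehydrogenase genes, 2 were called at 18.5 versus 11.5 dpc, both downward. Pdha1, the X-linked E1 alpha subunit of pyruvate dehydrogenase, had 167.6 and 124.7 at 18.5 dpc, against 412.0 and 404.0 at 11.5 dpc (-1.40 ± 0.17, limma adjusted p = 0.00023), and Idh3b, of isocitrate dehydrogenase, fell by 1.22 ± 0.22 (adjusted p = 0.0034). The probe sets of Mfn2, Fis1 and Idh3b are of the family type.

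Of 70 mitochondrial ribosome genes, 4 were called upward and 3 downward at 18.5 versus 11.5 dpc, with Mrps31 (1.13) and Mrpl32 (0.90) up and Mrpl46 (-0.97) and Mrpl18 (-0.82) down (limma adjusted p = 0.018, 0.038, 0.035 and 0.047). Their median change was 0.16 at 14.5 versus 12.5 dpc and -0.21 at 16.5 versus 14.5 dpc. The probe sets of Mrps31, Mrpl46 and Mrpl18 are of the family type. Of 21 import genes, Timm44 rose by 0.53 ± 0.16 (adjusted p = 0.046) and Timm8a1, a chaperone between the membranes, fell by 1.44 ± 0.24 (adjusted p = 0.0018). Of 9 antioxidant genes, Sod2, the mitochondrial superoxide dismutase, rose by 0.63 ± 0.17 (adjusted p = 0.027) and the glutathione peroxidase Gpx4 fell by 0.63 ± 0.16 (adjusted p = 0.024).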
